A study of Mus musculus with 2 samples.

Results

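The integrated stress response genes examined here were Atf4, Atf5, Ddit3, Ddit4, Trib3, Chac1, Asns, Sesn2, Gdf15 and Nupr1. They were chosen by name, and all 10 were found by symbol among the 31053 genes of the deposited tables. In the integrated stress response, kinases that sense unfolded protein, amino acid shortage, double-stranded RNA or heme shortage phosphorylate the translation factor eIF2. General protein synthesis then slows while translation of the ATF4 messenger rises, and ATF4 with partner bZIP factors switches on genes for amino acid supply, redox balance and, when stress lasts, cell death. The response is known in oligodendrocytes as a reaction to the heavy load of membrane protein made during myelination and to ischaemia. Because ATF4 itself is controlled largely at translation, its messenger level and that of its targets can differ.

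Cells came from male C57/BL6 mice whose middle cerebral artery was occluded for 60 min on postnatal day 10, with 2 weeks of reperfusion before the lateral striatum was taken. The ipsilateral library held cells from the occluded side and the contralateral library cells from the opposite side. Each pooled 3 animals and was sorted on the surface antigens A2B5 and O4, which mark precursors and later oligodendrocyte stages. No library from animals without an occlusion was analysed here, so the contralateral side is the only reference. With 1 library a side there is no test of a difference, no p-value and no estimate of spread between animals. Every interval given is a 95% interval that covers counting error only. A unique molecular identifier (UMI) stands for 1 captured RNA molecule, and a level in CPM is a gene's share of all UMIs in the same cells, on the usual counts-per-1e6 scale.

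The contralateral library had 2066 barcodes and 36063045 UMIs, and the ipsilateral library 2775 barcodes and 54788795 UMIs, with no barcode sequence in common. At least 500 genes and at most 15% mitochondrial UMIs were required, which left 1913 and 2505 barcodes. After 14 and 101 doublet calls, clusters were named from marker genes. Cells of the oligodendrocyte lineage were oligodendrocyte precursor-like (OPC-like, 316 contralateral and 401 ipsilateral cells), committed or newly formed (113 and 218) and mature (526 and 954). Cells outside that lineage, also present after the sort, were neuroblast-like (558 and 508), astrocyte-like (116 and 117) and endothelial-like (181 and 125). Median UMIs per cell ran from 8262 in contralateral endothelial-like cells to 28353.5 in ipsilateral mature cells. Mural-like cells of vessel walls numbered 14 and 15, and 75 and 66 cells stayed unnamed. Different clusters held most OPC-like cells in the libraries (cluster 1 with 68.7% contralaterally, cluster 4 with 55.1% ipsilaterally). The same held for committed cells (cluster 12 with 64.6% contralaterally, cluster 14 with 50.5% ipsilaterally), so values within clusters are given where they bear on a result.

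The promoters of 4 members held the letters TGATGNAA on either strand within 250 bases before to 50 after a transcript start. This is a form of the C/EBP-ATF response element that ATF4 heterodimers are known to bind. It was present in 3.97% of 32851 RefSeq promoter windows of the same length. The 4 members were Asns, Chac1, Nupr1 and Trib3. Stretches are shown for the 3 whose match lies before the transcript start, while the Trib3 match starts 14 bases after it. The sequences are from RefSeq on GRCm38.p6, written 5′ to 3′ on the strand of the gene, with the match in capitals. The Chac1 stretch lies at chr2:119351038-119351067 on the plus strand, the Asns stretch at chr6:7693214-7693243 on the minus strand and the Nupr1 stretch at chr7:126625562-126625591 on the minus strand.
Chac1: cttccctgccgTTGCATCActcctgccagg
Asns: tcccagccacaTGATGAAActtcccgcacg
Nupr1: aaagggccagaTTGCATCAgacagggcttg
The Asns match starts 23 bases before the transcript start, the Nupr1 match 110 before and the Chac1 match 193 before. Chac1 and Nupr1 share the same 8 letters, TTGCATCA, which is the motif read on the opposite strand, and Asns carries TGATGAAA. The cyclic AMP response element TGACGTCA was in 1.79% of windows and in none of the 12 windows of the 10 members. A match is a description of letters, not of binding.

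Atf4, the transcription factor at the centre of the response (chr15:80255184-80257541, plus strand, GRCm38), was detected in 81.9% of contralateral and 80.9% of ipsilateral barcodes. Over these 6 larger classes its level was highest in endothelial-like cells and lowest in mature oligodendrocytes in both libraries. Contralaterally it was 261 CPM in endothelial-like, 203 in astrocyte-like, 198 in neuroblast-like, 167 in OPC-like, 136 in committed and 98.8 in mature cells, and only the astrocyte-like and neuroblast-like intervals overlapped as neighbours in that order. Ipsilaterally the order was endothelial-like at 226 CPM, neuroblast-like at 178, astrocyte-like at 146, OPC-like at 139, committed at 121 and mature at 95.1. There the neighbours from neuroblast-like to committed overlapped. Within the oligodendrocyte lineage Atf4 was thus lowest in the mature class on each side. All 6 classes had a lower ipsilateral value, though in committed, mature and endothelial-like cells the interval of the ratio included 0. A single barcode held 39 of the 259 contralateral astrocyte-like UMIs of Atf4. Without it that level was 177 CPM, below the contralateral neuroblast-like level.

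The ipsilateral to contralateral log2 ratio of Atf4, taken after adding 5 CPM to each level, was -0.26 (-0.42 to -0.11) in OPC-like cells and -0.15 (-0.26 to -0.05) in neuroblast-like cells. In mature cells it was -0.05 (-0.14 to 0.04). Within OPC-like cluster 1 the level was 171 CPM contralaterally and 109 ipsilaterally, a log2 ratio of -0.63 (-0.86 to -0.40). In OPC-like cluster 4 it was 161 and 156 CPM, a log2 ratio of -0.05 (-0.28 to 0.19). The lower ipsilateral Atf4 of OPC-like cells exceeded counting error in cluster 1 and not in cluster 4.

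Atf5 is an ATF4-related bZIP factor that is itself translated preferentially when eIF2 is phosphorylated (chr7:44812256-44816658, minus strand, overlapping Nup62 and Il4i1 on the plus strand). Among the 6 larger classes it was highest in neuroblast-like and astrocyte-like cells. Neuroblast-like cells had 75.5 CPM contralaterally and 83.3 ipsilaterally, and astrocyte-like cells 73.1 and 53.8. A single barcode held 23 of the 93 contralateral astrocyte-like UMIs of Atf5, and without it that level was 56.4 CPM. OPC-like, committed, mature and endothelial-like cells lay between 8.32 and 18.4 CPM in either library. Among those 4 classes neighbouring intervals overlapped. In committed cells Atf5 was 8.68 CPM contralaterally and 14.5 ipsilaterally, a log2 ratio of 0.51 (0.07 to 0.95), on 27 and 76 UMIs. Within committed clusters the ratio was 0.67 (0.11 to 1.19) in cluster 12 and -0.01 (-0.80 to 0.79) in cluster 14.

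Ddit3 encodes CHOP, the ATF4 target factor linked to cell death under lasting stress (chr10:127290774-127296288, plus strand). In the annotation it overlaps Mars on the opposite strand and another entry of the same symbol, and 4.56% of its 31-base words occur in that second entry. Counting options were not given in the sources used here, so reads from these overlaps cannot be assigned with certainty. Ddit3 was higher in mature oligodendrocytes than in their precursors. It was 24.2 CPM contralaterally and 29.0 ipsilaterally in OPC-like cells, 26.4 and 29.3 in committed cells and 63.5 and 75.7 in mature cells. The mature intervals (59.5 to 67.7 and 72.5 to 79.0) lay above those of both earlier stages and apart from each other. The mature log2 ratio was 0.24 (0.13 to 0.34), under the 1.5-fold mark of 0.58 on the log2 scale.

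Ddit4 encodes REDD1, an inhibitor of mTORC1 that ATF4, hypoxia and glucocorticoids are each known to induce (chr10:59949669-59951834, minus strand). It was the most abundant member, with 7963 contralateral and 14019 ipsilateral UMIs. Mature oligodendrocytes had 378 CPM contralaterally and 390 ipsilaterally, and astrocyte-like cells 302 and 380. Endothelial-like cells had 163 and 215, OPC-like cells 106 and 69.2, committed cells 92.6 and 72.0, and neuroblast-like cells 43.6 and 45.4. The OPC-like and committed intervals overlapped in both libraries, the mature and astrocyte-like ones ipsilaterally. Ddit3 and Ddit4 were therefore both high at the mature end of the lineage, where Atf4 was at its lowest.

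Asns, asparagine synthetase (chr6:7675169-7693254, minus strand), ran the other way along the lineage. It was 56.3 CPM contralaterally and 66.3 ipsilaterally in OPC-like cells, 46.3 and 50.0 in committed cells, and 6.22 and 7.61 in mature cells. Neuroblast-like cells had 34.7 and 40.1 CPM. Across the 12 sums of 6 classes in 2 libraries, Pearson's r between log2 levels of Asns and Ddit4 was -0.88. The r is given as a description, since sums of a library share its depth and preparation.

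**Figure D1:**
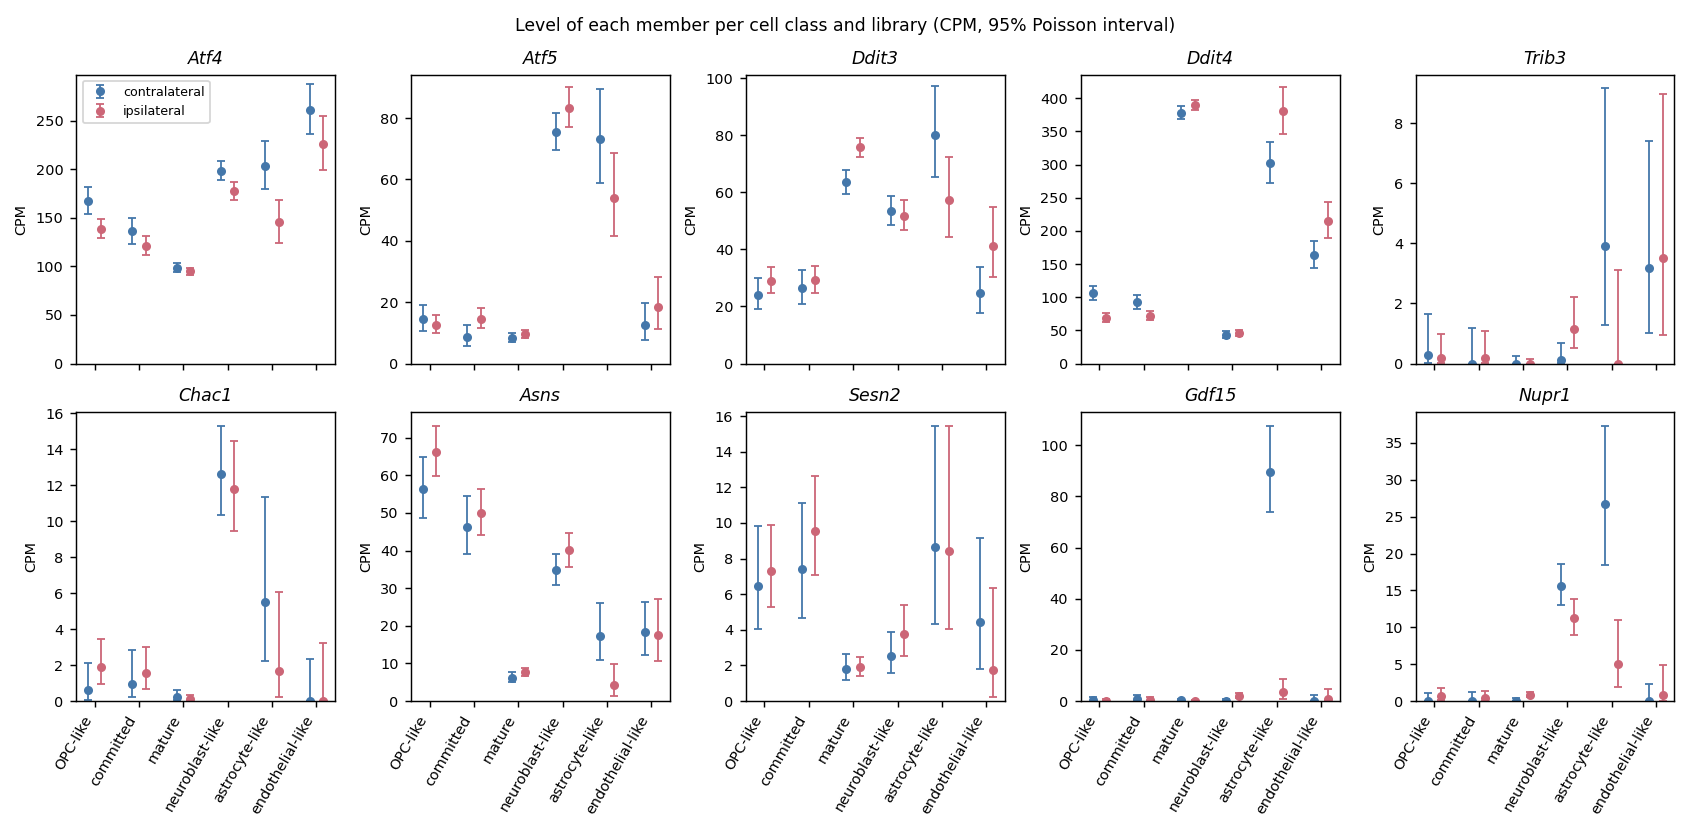
Level of each of the 10 members in CPM (vertical axes, each from 0 and with its own scale) in 6 cell classes, with contralateral values in blue and ipsilateral values in red and 95% Poisson intervals as bars. Atf4 is lowest in mature cells at 98.8 and 95.1 CPM, Ddit3 and Ddit4 are high there, Chac1 stands out in neuroblast-like cells at 12.6 and 11.8 CPM, and Gdf15 in contralateral astrocyte-like cells at 89.6 CPM.

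The remaining members were scarce. Sesn2, a leucine-binding inhibitor of mTORC1 signalling (chr4:132492032-132510501, minus strand, overlapping Gm12981), lay between 1.75 and 9.57 CPM over the 6 larger classes of both libraries. Trib3, a pseudokinase that feeds back on ATF4 (chr2:152337422-152344032, minus strand), had 12 contralateral and 17 ipsilateral UMIs in all. Chac1, a glutathione-degrading enzyme induced by ATF4 (chr2:119351229-119354381, plus strand), had 104 and 91 UMIs in neuroblast-like cells, or 12.6 and 11.8 CPM, and at most 11 UMIs in any other class and library. Gdf15, a secreted stress cytokine (chr8:70629393-70632456, minus strand), had 143 contralateral and 26 ipsilateral UMIs, and 12 of the ipsilateral UMIs lay in 1 neuroblast-like cell. Nupr1, a small stress-induced chromatin protein (chr7:126623249-126630861, minus strand, with 1.33% of its words shared with Gm28587), had 15.7 and 11.2 CPM in neuroblast-like cells. No OPC-like or committed contralateral cell had a Nupr1 UMI, which allows up to 1.09 and 1.19 CPM by the exact interval. The largest single barcode held 68.5% of contralateral and 46.2% of ipsilateral Gdf15 UMIs and 41.7% of contralateral Trib3 UMIs, while it held 4.00% and 2.43% for Sesn2.

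Mural-like cells were few, but had the highest Nupr1 of the named classes. Nupr1 was 203 CPM (136 to 291) on 29 contralateral UMIs and 222 CPM (147 to 320) on 28 ipsilateral UMIs, above the neuroblast-like intervals. Atf5 was 140 CPM (85.4 to 216) and 166 CPM (103 to 254) on 20 and 21 UMIs. Its contralateral interval overlapped that of astrocyte-like cells, where 1 barcode held 24.7% of the Atf5 UMIs. A single ipsilateral barcode held 12 of the 21, and without it the mural-like level was 79.0 CPM, against 81.2 CPM in neuroblast-like cells without their own largest barcode. Atf4 was 224 and 198 CPM, Ddit4 90.8 and 111, and Ddit3 76.9 and 31.7 on 11 and 4 UMIs. Asns, Sesn2 and Gdf15 had at most 2 UMIs a library, and Trib3 and Chac1 none, in these 14 and 15 cells.

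Genes were compared between libraries within a class where both libraries together had at least 20 UMIs, and a log2 ratio of at least 1.5-fold either way was counted. In OPC-like cells 0 of 6 measured members passed 1.5-fold, against 3.29% of 12171 genes (1.6% higher ipsilaterally and 1.69% lower). In committed cells the count was 0 of 6, against 5.02% of 11117 genes (1.54% higher and 3.48% lower). In mature cells it was 0 of 7, against 0.658% of 12149 genes (0.494% higher and 0.165% lower). In neuroblast-like cells it was 0 of 8, against 0.981% of 12232 genes (0.499% higher and 0.482% lower). The median log2 ratio of the measured members was -0.02 in OPC-like, 0.11 in committed, 0.13 in mature and 0.01 in neuroblast-like cells. The medians over all genes measured in those classes were -0.05, 0.01, 0.01 and 0.03. In these 4 classes no measured member passed 1.5-fold 2 weeks after the occlusion, at the depth of these libraries. Beside such shares of all genes, counts of 0 in a list this short do not set the members apart.

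The largest ratio of a measured member in the 3 lineage classes was that of Ddit4 in OPC-like cells, which stood just inside the 1.5-fold mark (-0.578 against 0.585). The level was 106 CPM (95.1 to 117) contralaterally on 359 UMIs and 69.2 CPM (62.6 to 76.4) ipsilaterally on 398 UMIs. The intervals did not overlap, and the log2 ratio was -0.58 (-0.78 to -0.38). The ipsilateral value was also the lower in each OPC-like cluster, at 123 against 91.8 CPM in cluster 1 and 73.9 against 56.4 CPM in cluster 4. There the log2 ratios were -0.40 and -0.36, smaller than in the pooled class, whose cells were divided differently between the clusters. Among 10 hypoxia-induced genes in OPC-like cells, 2 were past 1.5-fold lower and 1 higher. Vegfa, the vascular growth factor, was 113 CPM contralaterally and 63.1 ipsilaterally, and Adm, the vasodilator peptide adrenomedullin, 105 and 40.0. Ndrg1 went the other way, at 7.96 and 20.9 CPM. Of 10 glucocorticoid-induced genes there, 1 was higher (Cdkn1a, the p21 cell cycle inhibitor, 7.66 and 19.0 CPM) and 0 lower. Beside both counts, 1.6% of all genes measured in OPC-like cells were higher and 1.69% lower. The part of hypoxia-induced or glucocorticoid-induced genes in the Ddit4 values was not tested. In committed cells Ddit4 was also lower ipsilaterally, with a log2 ratio of -0.34 (-0.55 to -0.13). Within committed clusters it was 102 and 93.7 CPM in cluster 12 and 60.3 and 41.7 CPM in cluster 14, and the interval of the ratio included 0 in each. With finer clustering (Leiden resolution 2) or each library clustered alone the committed ratio was 0.07 and 0.20, the opposite direction. The 10 mature markers summed to 8381 CPM in contralateral and 4479 CPM in ipsilateral committed cells, with none at 0, and their part in this and the other committed ratios was not tested. Of 9 hypoxia-induced genes measured in committed cells, Ndrg1 was lower, at 135 and 47.5 CPM, and Ldha higher, at 143 and 261 CPM. Over all genes there 3.48% were lower and 1.54% higher.

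Among mature oligodendrocytes, Ddit3 and Ddit4 differed more between clusters than between libraries. Cluster 0 had 96.2 CPM of Ddit3 contralaterally and 106 ipsilaterally, and cluster 7 had 36.1 and 25.2. For Ddit4 the same clusters had 495 and 473 CPM against 241 and 219. Cluster 13, with C4b among its leading genes, was drawn almost wholly from the ipsilateral library (171 of 177 cells). Its ipsilateral cells had 72.7 CPM of Ddit3 and 371 CPM of Ddit4, between those clusters. Clusters were built from all variable genes, so these differences describe the clusters and are no test. The ratio of Ddit3 between libraries was 0.14 (-0.03 to 0.30) in cluster 0, 0.09 in cluster 3, 0.27 in cluster 5 and -0.45 (-0.80 to -0.09) in cluster 7. The class-wide ipsilateral increase of Ddit3 was thus not shared by all its clusters.

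**Figure D2:**
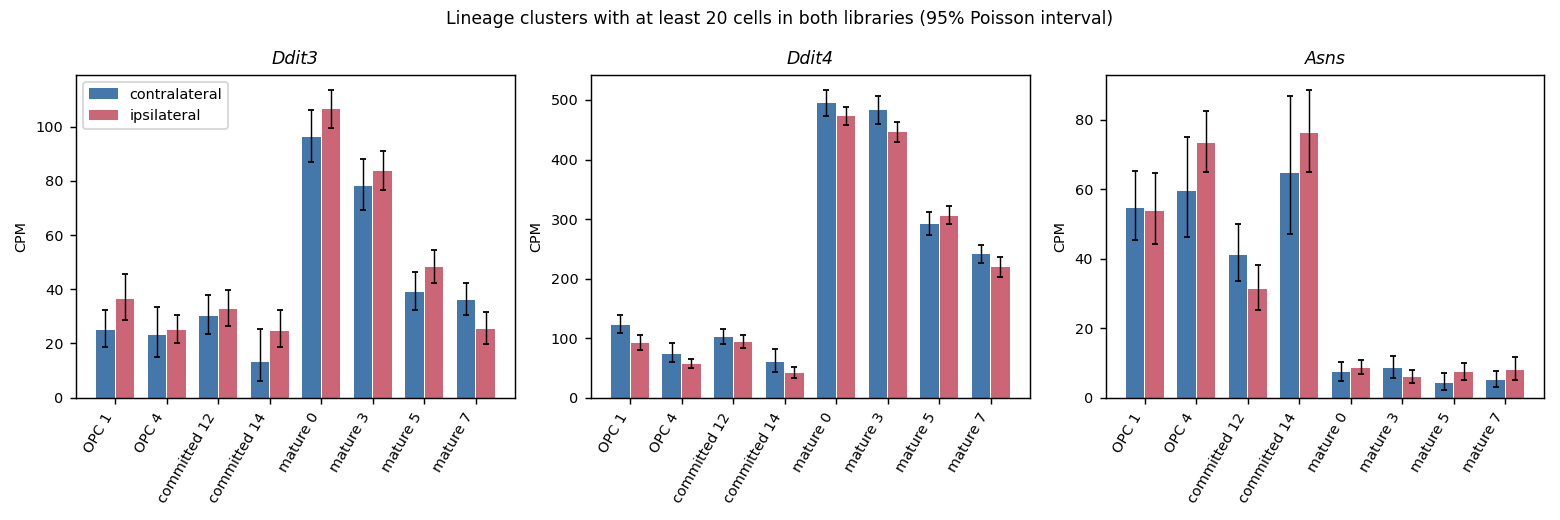
Ddit3, Ddit4 and Asns in CPM (vertical axes from 0) in each oligodendrocyte-lineage cluster with at least 20 cells in both libraries, with contralateral bars in blue, ipsilateral bars in red and 95% Poisson intervals. Ddit4 is 123 and 91.8 CPM in OPC-like cluster 1, 73.9 and 56.4 in OPC-like cluster 4 and 60.3 and 41.7 in committed cluster 14. Among the mature clusters it is 241 and 219 in cluster 7 and 495 and 473 in cluster 0, while Asns drops to under 10 CPM in the mature clusters.

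In endothelial-like cells 1 of 5 measured members was past 1.5-fold higher ipsilaterally, against 4.88% of 8807 genes higher, 3.45% lower and 8.33% either way. This was Ddit3, at 24.8 CPM (17.6 to 33.8) on 39 contralateral UMIs and 41.2 CPM (30.2 to 54.7) on 47 ipsilateral UMIs. The intervals overlapped as levels, and the log2 ratio was 0.63 (0.08 to 1.18). Ddit4 was 163 and 215 CPM, a log2 ratio of 0.39 (0.13 to 0.64). The 10 mature oligodendrocyte markers, whose own class is rich in both genes, summed to 751 CPM in contralateral and 1096 CPM in ipsilateral endothelial-like cells, with none at 0. The part of that RNA in the Ddit3 and Ddit4 values was not tested. Empty droplets were not analysed here.

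In astrocyte-like cells 3 of 8 measured members were past 1.5-fold lower ipsilaterally, against 4.22% of 9926 genes lower, 4.23% higher and 8.45% either way. Gdf15 was 89.6 CPM on 114 contralateral UMIs and 3.36 CPM on 4 ipsilateral UMIs. Nupr1 was 26.7 and 5.05 CPM on 34 and 6 UMIs, and Asns 17.3 and 4.21 CPM on 22 and 5 UMIs. These values rested on 1 contralateral barcode. It held 98 of the 114 Gdf15 UMIs (86.0%), 30 of the 34 Nupr1 UMIs (88.2%) and 18 of the 22 Asns UMIs (81.8%). Without it the log2 ratio of Asns was 0.16 and that of Nupr1 0.29, on 9 and 10 summed UMIs, and Gdf15 was -1.10 on 20 summed UMIs. Ddit3, at 80.1 CPM contralaterally and 57.2 ipsilaterally in the whole class, had a log2 ratio of -0.45 with the barcode and 0.29 without it, when its contralateral level was 45.9 CPM. Atf4 went from -0.47 to -0.28, and Ddit4 was 0.33 either way. The count past 1.5-fold was then 1 of 5, and the median log2 ratio of the measured members went from -0.46 to -0.06. Nupr1, Asns and Sesn2 (21 summed UMIs, 5 of them in that barcode) reached the minimum of 20 UMIs only with it. Gdf15, the 1 member still past 1.5-fold, was exactly at that minimum without the barcode.

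**Figure D3:**
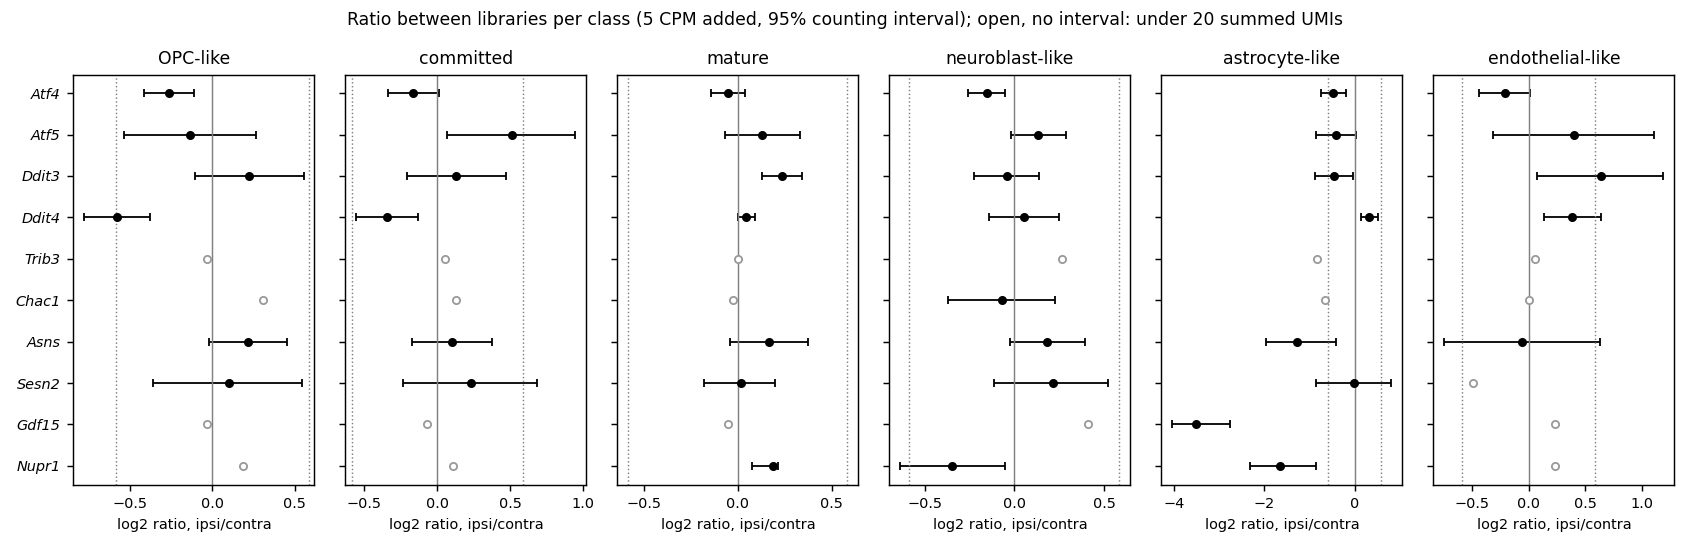
Log2 ratio of ipsilateral over contralateral level for each member (rows) in 6 classes (panels, each with its own horizontal scale), with 95% counting intervals, the 1.5-fold marks dotted, and open points without intervals where fewer than 20 UMIs were summed. The filled points of the 3 lineage classes lie inside the dotted marks, and Gdf15 in astrocyte-like cells stands at -3.50.

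That barcode carried all 10 members, the only barcode of either library to do so. It had 32363 UMIs, against a class median of 10205.5, and 1.02% mitochondrial UMIs, against 4.64%. Its 282 member UMIs amounted to 8714 CPM, and the other 115 contralateral astrocyte-like cells had 605 CPM together. Besides Gdf15 and Nupr1 it held 45 UMIs of Ddit3, 39 of Atf4, 23 of Atf5, 18 of Asns, 12 of Ddit4, 7 of Chac1, 5 of Trib3 and 5 of Sesn2. Ddit4 was the member closest to the other cells, at 371 CPM in the barcode and 301 CPM in the rest. The pathway lists also summed higher in the barcode, apart from the serine to one-carbon enzymes, the glucocorticoid-induced genes and the immediate early genes. The 11 tRNA synthetases summed to 4789 CPM against 583 CPM in the other cells, the 9 amino acid transporters to 5964 against 733, and the 17 endoplasmic reticulum chaperone and degradation genes to 15048 against 2669. The CHOP-linked apoptosis genes summed to 1576 CPM against 239, the p53 targets to 1483 against 426 and the mitochondrial proteases and chaperones to 2812 against 1242. The 9 serine, glycine, proline and one-carbon enzymes summed to 1267 CPM against 1361, and the 10 glucocorticoid-induced genes to 6149 against 7577. In the latter list Mt1 was 3214 CPM against 5425 and Mt2 371 against 1287, while Cdkn1a was 1978 against 46.7. Hspa5, the main chaperone of the endoplasmic reticulum, alone had 5284 CPM against 374. The genes furthest above the rest included Gadd45a, Cdkn1a, Hmox1, Srxn1 and Slc7a11, named after their values were seen.

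The barcode had fewer astrocyte markers than the rest of its cluster's class. The 10 astrocyte markers summed to 958 CPM in it, the highest sum of any cell type list, and to 10250 CPM in the other contralateral cells of the class. Slc1a2 and Gja1 had 9 UMIs each, Slc1a3 8, Aldoc 3 and Slc4a4 2, and Aqp4, Gfap, Gjb6, Agt and Fgfr3 were at 0. The 10 markers of committed cells summed to 494 CPM against 318 CPM in the rest, with 3 detected. Summed OPC markers were at 154 CPM with 1 detected, and fibroblast, mural and blood markers were all at 0. The 12 immediate early genes, which dissociation is known to raise, summed to 1607 CPM in it against 13722 CPM in the rest. It is described only as 1 barcode with the full set of members.

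**Figure D4:**
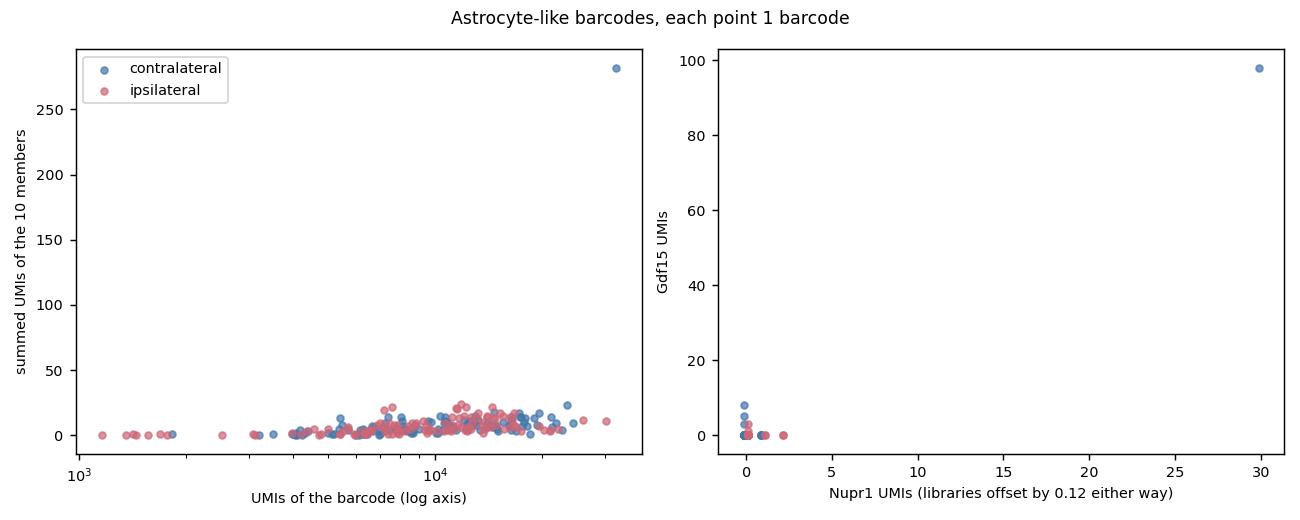
Astrocyte-like barcodes of the contralateral (blue) and ipsilateral (red) libraries, with summed member UMIs against total UMIs (left, log horizontal axis) and Gdf15 UMIs against Nupr1 UMIs (right, libraries set apart by 0.12 either way). A single contralateral point at 282 member UMIs stands away from all others in both panels, with 98 Gdf15 and 30 Nupr1 UMIs.

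Barcodes with at least 7 of the 10 members numbered 6 contralaterally and 8 ipsilaterally. Of these, 5 and 7 belonged to neuroblast-like cluster 8, and the others were the barcode above and 1 doublet call. Cluster 8 was led by Top2a, Mki67 and other genes of dividing cells, and had 137 contralateral and 123 ipsilateral cells. It made up 7.16% and 4.91% of the filtered barcodes but held 76.7% and 59.0% of Chac1 UMIs. It also held 31.7% and 29.6% of Atf5 UMIs, 26.2% and 18.1% of Asns UMIs and 36.6% and 16.4% of Nupr1 UMIs. Its shares were smaller for Atf4 (13.8% and 10.0%), Sesn2 (12.0% and 9.71%), Ddit3 (8.89% and 3.86%) and Ddit4 (1.18% and 0.585%). Its cells were deep, with a median of 24667 UMIs, against 12255 and 12967.5 UMIs in neuroblast-like cells as a whole, and more members are detected in deeper cells. The cluster's share of all UMIs was therefore larger than its share of barcodes.

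Within cluster 8, Chac1 was concentrated in a minority of cells. It was present in 27 of the 137 contralateral cells (19.7%) and in 22 of the 123 ipsilateral cells (17.9%), with 92 and 69 UMIs. Among mature cells of similar or greater depth, 0.570% and 0.314% had a Chac1 UMI. Cells of cluster 8 with and without Chac1 had similar depth, with medians of 23973 and 24316.5 UMIs contralaterally and 22340.5 and 26184 ipsilaterally. The split by Chac1 was chosen after the data were seen, and its results are given as a description in each library.

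The 7 other members with at least 20 summed UMIs had higher levels in the cells with Chac1 on both sides. Ddit3 was 101 CPM with and 37.5 without Chac1 contralaterally, and 96.8 and 30.7 ipsilaterally. Nupr1 was 77.2 and 11.8 CPM contralaterally, and 51.3 and 7.29 ipsilaterally. Atf4 was 320 and 196 CPM contralaterally, and 324 and 189 ipsilaterally, with intervals that did not overlap on either side. Asns was 108 and 56.5 CPM, and 107 and 72.5. Atf5 was 140 and 86.1 CPM, and 156 and 111. Ddit4 was 43.4 and 25.4 CPM, and 41.5 and 23.4. Sesn2 was 12.9 and 2.65 CPM, and 15.8 and 4.60, on at most 12 UMIs a group. Trib3 had 0 UMIs with and 1 without Chac1 contralaterally, and 5 and 3 ipsilaterally. No Gdf15 UMI was found in the cells with Chac1 of either library.

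Of these 7 members, 5 were at least 1.5-fold higher with Chac1 in both libraries, against 0.570% of 10703 genes. These were Atf4, Ddit3, Ddit4, Sesn2 and Nupr1, while Atf5 and Asns were under that mark ipsilaterally. The intervals with and without Chac1 overlapped for Ddit4 in both libraries, and for Sesn2, Atf5 and Asns ipsilaterally. Over all genes 61 were higher and 308 lower in both libraries. Among the pathway lists the same held for 4 of 9 amino acid transporters, 3 of 11 tRNA synthetases, 2 of 9 serine, glycine, proline and one-carbon enzymes and 2 of 7 bZIP partners, with examples chosen after their values were seen. Slc3a2, the heavy chain shared by several amino acid exchangers, was 272 and 150 CPM contralaterally, and 300 and 165 ipsilaterally. Mthfd2, a mitochondrial one-carbon enzyme, was 257 and 86.1 CPM, and 217 and 103. Cars, the cysteinyl-tRNA synthetase, was 109 and 41.0 CPM, and 142 and 59.8. In the other lists 1 of 17 endoplasmic reticulum chaperone and degradation genes was higher in both libraries (Herpud1). Of 8 eIF2 and eIF2B subunits 1 was higher (Eif2s2, 819 and 476 CPM contralaterally, 841 and 519 ipsilaterally) and 1 lower (Eif2b3). The count was 0 either way for 4 kinases, 9 p53 targets and 8 mitochondrial proteases and chaperones. Of 6 hypoxia-induced genes 0 were higher and 1 lower in both libraries (Ldha). Of 10 immediate early genes 0 were higher and 2 lower (Fosb and Btg2).

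The genes furthest above in both libraries, named after their values were seen, began with Nupr1, Hrk, Ddit3, Ripor2, Jdp2, Eif4ebp1 and Cars. Eif4ebp1, a translation repressor and known ATF4 target, was 159 and 34.1 CPM contralaterally, and 115 and 47.6 ipsilaterally. Among the genes lower with Chac1 were Mfge8 and Olig2, the latter a transcription factor of oligodendrocyte and other neural precursors. Mfge8 was 12.9 and 143 CPM contralaterally, and 15.8 and 117 ipsilaterally, and Olig2 was 11.3 and 47.4, and 7.90 and 24.5. The cells with Chac1 therefore differed in other genes of cell state as well, whose part in the member values was not tested.

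**Figure D5:**
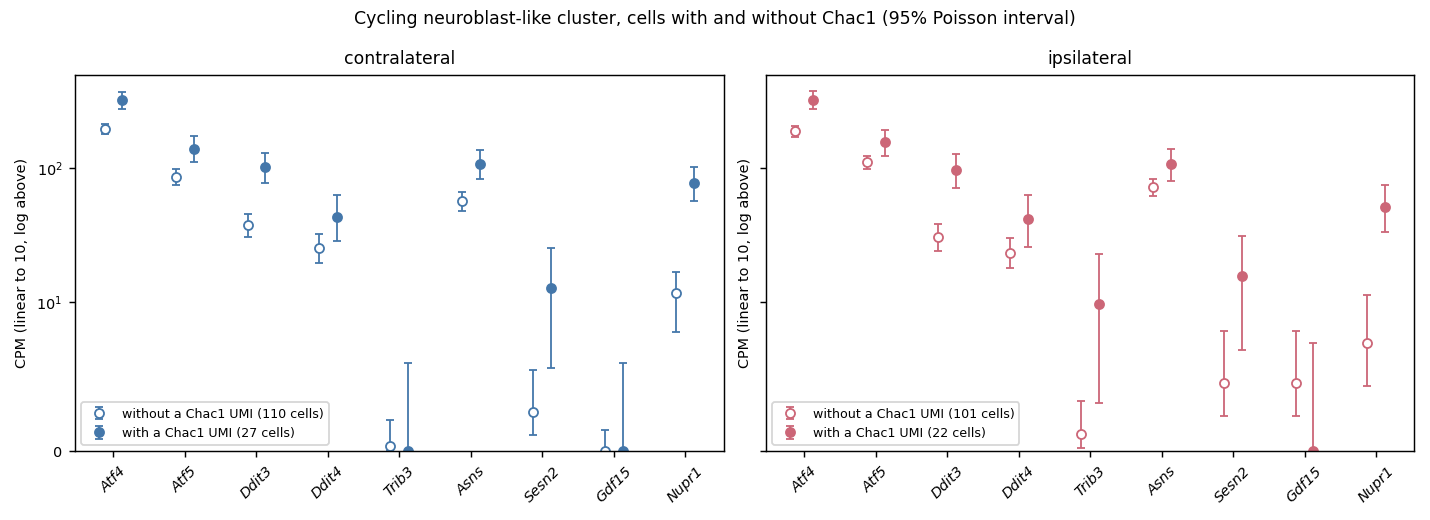
Level of 9 members in cells of cycling neuroblast-like cluster 8 with (filled) and without (open) a Chac1 UMI, in the contralateral (left) and ipsilateral (right) library, in CPM on an axis that is linear to 10 and logarithmic above, with 95% Poisson intervals. Atf4, Ddit3, Ddit4, Sesn2 and Nupr1 are at least 1.5-fold higher with Chac1 in both panels, Nupr1 at 77.2 against 11.8 and 51.3 against 7.29 CPM.

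To compare cells rather than sums, each cell was thinned to 5000 UMIs and the share with at least 3 members was taken. In OPC-like cells it was 11.3% (7.95 to 15.4) contralaterally and 10.1% (7.30 to 13.6) ipsilaterally by exact binomial intervals, after 15 and 16 shallower cells were left out. In mature cells it was 12.3% and 12.2%, a difference of -0.07 points with a Newcombe interval of -3.81 to 3.47. Astrocyte-like cells had the highest share in both libraries, 20.4% and 20.8%. The intervals of the difference between libraries included 0 in all 6 classes. Without thinning the OPC-like share was 37.7% and 46.9%, a difference of 9.22 points (1.74 to 16.6). Median depth in OPC-like cells was 10125 UMIs contralaterally and 12538 ipsilaterally. Thinned to 10000 UMIs, with 154 and 98 cells left out, the share was 33.3% and 35.6%. That was a difference of 2.31 points (-7.19 to 11.5). The part of depth in the difference without thinning was not tested.

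Upstream of ATF4, all 4 eIF2 kinases were measured in the 3 lineage classes, and 0 passed 1.5-fold, as did 0 of 8 eIF2 and eIF2B subunits and 0 of 5 phosphatase subunits. Over all genes 3.29% passed either way in OPC-like, 5.02% in committed and 0.658% in mature cells, so counts of 0 in lists this short do not set them apart. Eif2ak3, which encodes the endoplasmic reticulum sensor kinase PERK, was 17.1 CPM contralaterally and 15.2 ipsilaterally in mature cells. Ppp1r15a, the stress-induced phosphatase subunit GADD34 that reverses eIF2 phosphorylation, was 33.7 and 46.4 CPM there, a log2 ratio of 0.41 (0.28 to 0.54). None of 11 tRNA synthetases and none of 17 endoplasmic reticulum chaperone and degradation genes passed 1.5-fold in a lineage class. Hspa5 had 517 and 569 CPM in OPC-like, 495 and 552 in committed and 282 and 311 in mature cells, a log2 ratio of 0.14 in OPC-like and mature cells and 0.16 in committed cells. The 5 endoplasmic reticulum stress sensors and 8 mitochondrial proteases and chaperones likewise had 0 past the mark in each lineage class. Of 5 CHOP-linked apoptosis genes measured, 1 was higher in committed cells, Bbc3, which encodes the death protein PUMA, at 10.3 and 22.2 CPM. Of the p53 targets 1 of 8 was lower in committed cells, Phlda3 at 87.5 and 53.4 CPM, and 0 passed in OPC-like and mature cells. Cdkn1a and Bbc3 were counted in the glucocorticoid-induced and CHOP-linked lists and not among these p53 targets.

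Among genes that supply amino acids, 2 of 8 serine, glycine, proline and one-carbon enzymes were higher in ipsilateral OPC-like cells, against 1.6% of all genes there. Mthfd2 was 12.7 and 24.5 CPM, and Pycr1, of proline synthesis, 3.83 and 9.74. In committed cells 2 of 8 were higher and 1 lower, against 1.54% and 3.48% of all genes. Aldh18a1, also of proline synthesis, was 10.6 and 19.9 CPM, Aldh1l2, a mitochondrial folate enzyme, 7.40 and 14.5, and Phgdh, which opens serine synthesis, 118 and 63.4. In mature cells 1 of 7 was higher, against 0.494% of all genes, and this was Aldh1l2 at 3.65 and 11.2 CPM, a log2 ratio of 0.90 (0.69 to 1.09). Of the amino acid transporters, again beside 1.69% and 3.48% of all genes lower, 1 of 8 was lower in OPC-like cells (Slc7a5, a large neutral amino acid exchanger, 11.8 and 5.74 CPM) and 1 of 7 in committed cells (Slc6a9, the glycine transporter GlyT1, 39.9 and 18.4 CPM). Slc7a5 was also lower ipsilaterally in neuroblast-like cells, at 10.7 and 4.65 CPM, and in endothelial-like cells, at 367 and 224 CPM.

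Among the bZIP partners of ATF4 in mature cells, 2 of 7 were past 1.5-fold higher and 0 lower, against 0.494% and 0.165% of all genes. In OPC-like cells 1 of 7 was higher (Cebpd, 71.3 and 110 CPM) and 1 lower (Cebpb, a log2 ratio of -0.69), and in committed cells 1 of 6 higher (Atf3) and 1 lower (Nfe2l2, 10.3 and 3.64 CPM). Cebpd, a C/EBP factor known for its induction in inflammation, was 8.11 CPM contralaterally and 41.1 ipsilaterally, a log2 ratio of 1.81 (1.63 to 1.99), in mature cells. Atf3, a stress-induced repressor, was 18.4 and 35.2 CPM there, a log2 ratio of 0.78 (0.62 to 0.94). In committed cells Atf3 was 1.61 and 10.1 CPM on 5 and 53 UMIs. Members did not pass the mark beside them in either class. Of 12 genes listed as immediate early, the heat shock genes Hspa1a and Hspa1b among them, 1 was higher and 2 lower in mature cells. Over all genes there 0.494% were higher and 0.165% lower. The list had 9 genes above 0 and 3 below, and a median log2 ratio of 0.17 against 0.01 over all genes. Junb was at 466 and 902 CPM and Hspa1a at 59.6 and 28.0, and the part of tissue handling in the Atf3 values was not tested.

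Genes whose log2 levels followed a member most closely over the 12 class sums, among 11899 genes with at least 200 UMIs, were named by rank. Atf4 was followed by Atp5j (r = 0.97), 2510046G10Rik and Mtr, Atf5 by Zfp385b (r = 0.98), Helt and Sox1, and Ddit3 by Tbc1d17 (r = 0.89), Paxx and Ift22. Ddit4 was followed by Skap2 (r = 0.96), Tob2 and Myo6, Asns by Prkar2b (r = 0.95), Cstf2 and Acbd6, and Sesn2 by Mroh1 (r = 0.96), Taz and Nhlrc3. Chac1 was followed by Hist1h2bg (r = 0.97), Hdgf and Mzt1, and Nupr1 by Elovl2 (r = 0.96), Helt and Zfp385b. Among the members, Atf5 had r = 0.93 with Nupr1 and 0.86 with Chac1. Without the barcode with all 10 members, which held most Nupr1 and all Chac1 UMIs of the contralateral astrocyte-like sum, these were 0.92 and 0.71. The highest r of Atf4 with another member with at least 200 UMIs was 0.45, with Atf5, and its r with Ddit4 was -0.25. These values describe how levels lay over 6 classes and carry no test.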

How the data were processed

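The deposited values are UMI counts per gene and barcode, made by the authors with Cell Ranger 3.1.0 on mm10, per the submitters' processing notes. The annotation and the alignment options were not given in the sources used here. All 10 members, the 15 pathway lists and the markers were chosen with earlier results of these data known.

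Barcodes with at least 500 genes and at most 15% mitochondrial UMIs were kept. Scrublet (expected rate 0.05, in scanpy 1.11.5) marked 0.732% of contralateral and 4.03% of ipsilateral barcodes as doublets, which were removed. Both libraries were scaled to 10000 UMIs a cell and joined in 1 Leiden clustering (resolution 1) with 15 neighbours, from 30 principal components of 2000 variable genes. A cluster took the class with the best marker score, if it was at least 0.3, at least 3 markers reached 0.3 of their highest level, no rival reached 0.6 of it, and its 10 leading genes held no more markers of another class. Shallow clusters without own markers stayed unnamed. Those naming limits were chosen with the clusters in view. So was an exception between OPC and committed classes, decided by leading markers, which was added because a first naming left cluster 14 unnamed.

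UMIs were summed per library and class. Levels are CPM with exact Poisson intervals. Ratios use 5 added CPM and an exact binomial interval of the ipsilateral share. Members and all genes with at least 20 summed UMIs were compared. The scripts were tested on simulated data. With 1 library a side, no test was made. All 10 members are named in every class, with up to 3 genes of each pathway list (largest ratio in a lineage class, at least 50 UMIs) and 3 genes of like pattern per member. Of 12 tRNA synthetases, 11 were matched. Gene positions are from GENCODE M21. All values come from python 3.11.15, numpy 2.4.6 and scipy 1.17.1.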

Additional observations from a re-analysis of the deposited data

Results flagged for a closer look

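Nupr1 had a level above that of any named class in cells that belong to no comparison, and so it is listed here. Unnamed cluster 20, whose leading genes include the fibroblast genes Dcn and Col1a1 and the microglial genes C1qa, C1qb and C1qc, had 6 contralateral and 22 ipsilateral cells. Nupr1 was at 999.4 CPM (828 to 1196) on 119 ipsilateral UMIs and at 435 CPM (276 to 653) on 23 contralateral UMIs, and the counting intervals did not overlap. The UMIs lay in 8 ipsilateral and 4 contralateral cells, where 1 ipsilateral barcode held 43 of the 119 and 1 contralateral barcode 16 of the 23. Chac1, Trib3 and Gdf15 had no UMI in this cluster in either library. With so few cells of mixed markers, the makeup of the cluster in each library and its part in the difference were not tested.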

How the results depend on the processing

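No paired analysis was possible because each side is 1 library and the labels give no replicate numbers. Of 493 values of single members under the alternatives, 432 stayed within their counting interval. In all, 63 changed sign, 38 of them in astrocyte-like cells and 25 in other classes, and 48 of the 63 were of members under 1.5-fold. The remaining 15, of members past 1.5-fold, were in astrocyte-like cells. Asns was 0.020 with no cell filter, 0.092 at Leiden resolution 2, 0.17 clustered without stress genes, 0.027 without the largest barcode of each gene, 0.20 in cells with no microglial UMI and 0.16 without the barcode with all 10 members. Nupr1 under those settings was 0.76, 0.92, 0.30, 0.029, 0.36 and 0.29, and 0.26 with the stricter cell filter. Gdf15 was 0.14 with the stricter filter and 0.95 with each library clustered alone. Only the setting without the barcode with all 10 members removes that barcode and no other cell. The setting without the largest barcode of each gene also drops a barcode of the other library. The cause of the changes under the remaining settings was not tested.

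The astrocyte-like count past 1.5-fold was 0 with the stricter filter, without the largest barcodes and in cells with no microglial UMI. It was 1 with no cell filter, at resolution 2, clustered alone, clustered without stress genes, at 100 summed UMIs and without the barcode, and 5 with no minimum. Its median was 0.19 with the stricter filter, 0.29 with no cell filter, 0.24 at resolution 2, 0.27 clustered alone, -0.10 without stress genes, 0.034 without the largest barcodes, 0.023 with no microglial UMI and -0.062 without the barcode.

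The OPC-like count was 1 with 1 CPM added, doublets kept, the stricter filter or resolution 2, and 2 at resolution 0.5. Ddit4 passed the mark there at -0.61, -0.60, -0.60, -0.64 and -0.90. The committed count was 1 with 1 CPM added, at resolution 0.5 and clustered alone, the mature count 1 with 1 CPM added and with the stricter filter, and the endothelial-like count 0 with 20 CPM added and at 100 summed UMIs. The difference in the share of cells with at least 3 members was 9.22 points in OPC-like, 4.48 in mature and 8.61 in endothelial-like cells without thinning. Thinned to 10000 UMIs it was -16.7 for astrocyte-like cells and 12.4 for endothelial-like ones, and at resolution 2 it was 13.3 in astrocyte-like cells. The removal of the barcode and of mature cluster 13, and the values within clusters, were added after seeing the data. Depth limits Trib3, Gdf15, Chac1 and Nupr1 outside the classes named for them.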
